A study of Mus musculus with 8 samples.

Results

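The Sox genes encode transcription factors that share the HMG box, a DNA-binding domain first described in the sex-determining gene Sry. The 10 genes described here, Sox1, Sox2, Sox3, Sox4, Sox11, Sox12, Sox13, Sox15, Sox18 and Sox21, were chosen by symbol from the 22987 genes that the tables list at 1 locus, and all 10 were found. Their RNA was measured in mouse epiblast stem cells (mEpiSC), which stand for the primed state of the epiblast after implantation, and in mouse embryonic stem cells (mESC), which stand for the naive state of the inner cell mass. The 4 mEpiSC libraries came from the lines EpiSC5 (mEpiSC 1), EpiSC7 (mEpiSC 2 and 3) and EpiSC9 (mEpiSC 4), kept with FGF2. The 4 mESC libraries came from ESF122 (mESC 1 and 2) and ESF175/1 (mESC 3 and 4), kept with LIF. The labels name no genetic change and no drug treatment in either state. Both grew in serum replacement medium on irradiated embryonic fibroblasts that were removed before RNA was taken, so remaining fibroblast RNA is a limit of either group. Age and strain of the embryos behind the lines are not stated in the labels, and neither is whether libraries of 1 line were separate cultures. The p-values therefore measure spread between libraries only, and that spread may be technical.

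Sox proteins bind short AT-rich elements in the minor groove of DNA and bend it, and most act together with a partner factor. In mouse embryonic stem cells Sox2 pairs with the POU factor Oct4 (Pou5f1) on joint elements near many pluripotency genes, and its SoxB1 relatives Sox1 and Sox3 can bind the same elements. The family is divided by protein sequence into groups. Those present here are SoxB1 (Sox1, Sox2 and Sox3), SoxB2 (Sox21), SoxC (Sox4, Sox11 and Sox12), SoxD (Sox13), SoxF (Sox18) and SoxG (Sox15).

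RefSeq promoter sequences, which run from 250 bases before to 50 bases after an annotated start in build GRCm38.p6, were held for 8 of the 10 genes. Promoters are shown for Sox2, the most abundant member, for Sox4 and Sox11, which were higher in mEpiSC, and for Sox15, which was lower there. Each is written 5′ to 3′ on the strand of the gene, and capitals mark CpG dinucleotides, the main target of DNA methylation.
Sox2 (+ strand, chr3:34649745-34650044): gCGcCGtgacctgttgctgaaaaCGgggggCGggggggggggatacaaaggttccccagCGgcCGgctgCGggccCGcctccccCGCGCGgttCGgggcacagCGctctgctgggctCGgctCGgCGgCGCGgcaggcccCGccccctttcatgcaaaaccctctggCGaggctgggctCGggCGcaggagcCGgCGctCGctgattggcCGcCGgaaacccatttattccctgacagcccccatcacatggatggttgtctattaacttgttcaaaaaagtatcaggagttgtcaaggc
Sox4 (− strand, chr13:28953650-28953949): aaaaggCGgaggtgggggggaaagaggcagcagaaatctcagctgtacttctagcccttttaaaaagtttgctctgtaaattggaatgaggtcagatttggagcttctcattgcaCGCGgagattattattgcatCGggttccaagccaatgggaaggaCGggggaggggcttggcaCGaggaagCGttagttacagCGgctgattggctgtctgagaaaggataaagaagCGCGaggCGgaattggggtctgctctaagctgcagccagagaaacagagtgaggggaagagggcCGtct
Sox11 (− strand, chr12:27342669-27342968): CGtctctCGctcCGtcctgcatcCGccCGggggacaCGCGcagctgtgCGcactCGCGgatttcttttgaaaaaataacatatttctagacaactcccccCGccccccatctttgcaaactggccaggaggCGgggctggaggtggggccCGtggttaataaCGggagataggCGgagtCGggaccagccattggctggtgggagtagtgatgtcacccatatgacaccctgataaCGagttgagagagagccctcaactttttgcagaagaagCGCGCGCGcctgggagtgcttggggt
Sox15 (+ strand, chr11:69654787-69655086): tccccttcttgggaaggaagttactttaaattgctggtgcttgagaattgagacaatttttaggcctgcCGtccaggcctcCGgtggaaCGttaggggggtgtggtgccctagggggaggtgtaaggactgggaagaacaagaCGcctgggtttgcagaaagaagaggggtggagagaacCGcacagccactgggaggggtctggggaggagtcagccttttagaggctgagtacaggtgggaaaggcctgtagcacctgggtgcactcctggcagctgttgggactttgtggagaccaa

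The Sox15 promoter stood apart from the others in CpG content. It held 5 CpG, a ratio of observed to expected CpG of 0.239, and 34.2% of the 32851 promoters of this length in the table had a lower ratio. The other 7 promoters had ratios from 0.679 in Sox4, with 12 CpG, to 1.07 in Sox1 and Sox12, with 37 and 47 CpG, against a median of 0.384 over the table. Their GC content ran from 52.0% in Sox4 to 76.7% in Sox12, with 56.0% in Sox15 and a median of 52.7% over the table. Short motifs were searched on both strands. The SOX core ACAAAG was found in the Sox2 and Sox15 promoters (18.7% of the table's promoters hold it), and the related core ACAATG in none of the 8 (12.6%). The octamer ATGCAAAT, bound by POU factors, was found in Sox1 and Sox12 (1.74%). The CCAAT box, CCAAT, was in 5 of the 8 (37.4%), the GC box, GGGCGG, in 4 (35.7%), and the TATA box, TATAAA, in none (13.6%). These are matches of letters and not sites of binding.

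Levels are given in FPKM, the fragments of a gene scaled by its transcript length and by the depth of the library. The unit is per length, so levels can be set side by side between genes. The deposited intervals implied 24700000 to 38600000 fragments per library (rounded), and 10947 to 11524 entries were at 1 FPKM or more. Of 6 naive markers 6 were lower in mEpiSC, and of 6 primed markers 5 were higher (limma, adjusted p under 0.05). The summed FPKM of 6 naive markers was 4.47 to 10.2 in mEpiSC and 154 to 320.0 in mESC, and that of 6 primed markers was 110.0 to 1140.0 in mEpiSC and 20.3 to 51.9 in mESC. The 10 fibroblast markers summed to 79.7 to 488 FPKM in mEpiSC and to 5.88 to 256 FPKM in mESC, with 9 or 10 of the 10 at 1 FPKM or more in mEpiSC and 3 to 9 in mESC. In bulk RNA, fewer cells of a type and less RNA per cell cannot be told apart.

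The summed Sox RNA overlapped between the states, while the shares of Sox2, the SoxC genes and Sox15 in it did not. The 10 genes summed to 125 to 269 FPKM in mEpiSC and to 135 to 208 FPKM in mESC. Sox2 made up 35.0%, 44.0%, 38.8% and 40.6% of that sum in mEpiSC 1 to 4, against 64.9%, 50.8%, 73.7% and 72.0% in mESC 1 to 4. The SoxC genes made up 39.2% to 48.2% in mEpiSC and 14.6% to 26.6% in mESC. Sox15 made up 0.0733% to 1.80% in mEpiSC and 5.16% to 8.82% in mESC. The share of Sox13 did overlap, at 4.69% to 7.35% in mEpiSC and 2.33% to 4.82% in mESC. As ratios within a library the shares do not depend on the scaling between libraries.

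**Figure D1:**
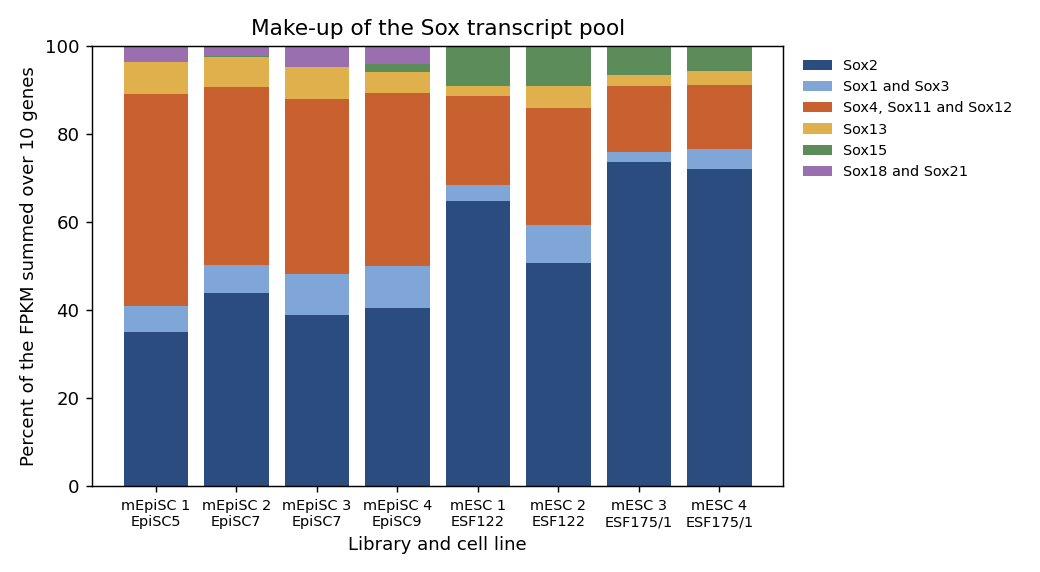
Percent of the FPKM summed over the 10 Sox genes (vertical axis) that each gene or group contributed in each library (horizontal axis, with its cell line). Sox2 takes 35.0% to 44.0% in the mEpiSC libraries and 50.8% to 73.7% in the mESC libraries, and Sox4, Sox11 and Sox12 together take 39.2% to 48.2% in mEpiSC and 14.6% to 26.6% in mESC.

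In mEpiSC the order by mean FPKM was Sox2 (73.5), Sox4 (32.4), Sox11 (27.5), Sox12 (16.9), Sox13 (12.5), Sox3 (8.36), Sox1 (6.31), Sox21 (4.76), Sox18 (2.24) and Sox15 (0.759). Sox2 lay above every library of Sox4, while each later neighbour in that order overlapped the next in range. In mESC the order was Sox2 (116), Sox12 (15.7), Sox15 (12.2), Sox4 (8.61), Sox11 (7.90), Sox13 (5.41), Sox3 (3.90), Sox1 (3.71), Sox21 (0.441) and Sox18 (0.269). There the ranges did not overlap between Sox2 and Sox12, between Sox15 and Sox4 or between Sox1 and Sox21. Sox15 thus held rank 10 in mEpiSC and rank 3 in mESC. The mean of Sox2 exceeded that of 94.0% of the 11556 tested genes in mEpiSC and of 96.8% in mESC.

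**Figure D2:**
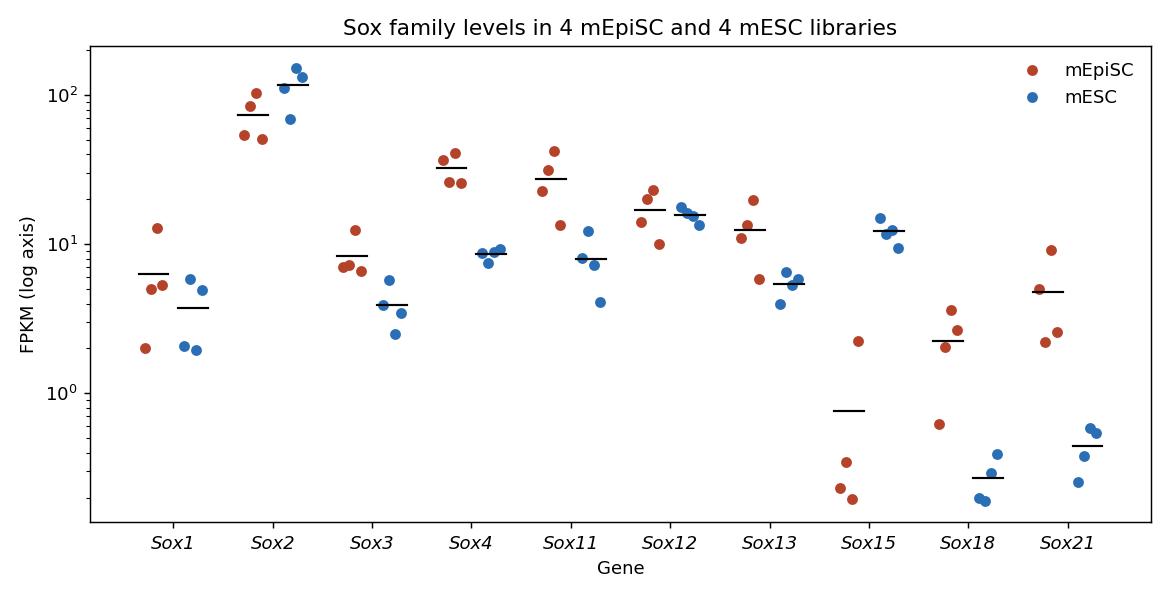
FPKM of each Sox gene (log axis) in the 4 mEpiSC and the 4 mESC libraries, with points for libraries and bars for the mean of the state. Sox4, Sox11, Sox3, Sox18 and Sox21 lie higher in every mEpiSC library than in any mESC library, and Sox15 lies lower.

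The state comparison asked which members differ between primed and naive cells. A gene was tested when it reached 1 FPKM in at least 4 libraries. The test used log2(FPKM + 1), a scale that makes changes of low genes look smaller than they are. Of the 10 members 9 were tested, of which 5 were higher in mEpiSC (Sox3, Sox4, Sox11, Sox13 and Sox21) and 1 was lower (Sox15) at an adjusted p under 0.05. Over all 11556 genes 37.3% were called, 23.1% as higher and 14.2% as lower. As deposited, 61.9% of all calls were higher in mEpiSC, against 47.7% with median ratio scaling and 49.8% with quantile normalization. Those scalings put the median of all genes at −0.046 and −0.019, and each called 4 members as higher and 1 as lower. The median log2 fold change as deposited was 0.93 over the 9 tested members and 0.083 over all tested genes. Values did not overlap between the states for 5 of the 9, against 37.1% of all tested genes. Sox21 passed that filter only through its 4 mEpiSC libraries, while Sox15 reached 1 FPKM in all mESC libraries and in mEpiSC 4, so their calls say little about low genes in general. Sox18 was at 1 FPKM or more in 3 libraries and was not tested.

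The SoxB1 genes, factors of the epiblast and of neural progenitors, did not move as 1 group. Sox2, which is needed for the epiblast to form (chromosome 3, mm9 34548926 to 34551382), measured 53.7, 85.0, 104 and 50.9 FPKM in mEpiSC 1 to 4, against 111, 68.7, 153 and 132 FPKM in mESC 1 to 4. The ranges overlapped, since mESC 2 lay below mEpiSC 2 and 3. In mESC 1 to 4 the naive markers summed to 190, 154, 320 and 307 FPKM, and the primed markers to 45.6, 51.9, 22.7 and 20.3 FPKM. The part of such differences in the Sox2 values was not tested. On the log2 scale the state difference of Sox2 was −0.66 (SE 0.30; 95% interval −1.34 to 0.02; limma, Benjamini-Hochberg adjusted p = 0.11). It was past the test in 2 of the 23 alternatives, at −0.80 in a fit of all libraries with 1 mean per cell line (adjusted p = 0.011) and at −0.89 without mESC 2 (adjusted p = 0.036). With each line's libraries averaged to 1 value it was also −0.80 and not past the test (adjusted p = 0.18), nor was it with a random term for the line (0.15). The noncoding gene Sox2ot, within which Sox2 lies, was at 0.128 to 0.724 FPKM in mEpiSC and 0.0940 to 0.469 FPKM in mESC, far below Sox2 in each library.

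Sox3, an X-linked factor of the epiblast and neural progenitors (chromosome X, mm9 58144540 to 58146605), measured 7.03, 7.25, 12.5 and 6.61 FPKM in mEpiSC 1 to 4, against 3.91, 5.75, 2.49 and 3.47 FPKM in mESC 1 to 4. Each mEpiSC library lay above every mESC library. The log2 change of Sox3 was 0.93 (SE 0.25; limma, adjusted p = 0.017). The call was lost without mESC 3 (adjusted p = 0.051), with a random term for the line (0.070), with 1 value per line (0.087), with limma's voom on implied fragments (0.071) and with the fibroblast marker level in the model (0.070). The Sox2 level was 7.63 to 11.7 times that of Sox3 in mEpiSC and 11.9 to 61.7 times in mESC.

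Sox1, an early marker of the neural plate (chromosome 8, mm9 12395518 to 12399555), measured 2.03, 5.04, 12.9 and 5.32 FPKM in mEpiSC 1 to 4, against 2.09, 5.84, 1.96 and 4.95 FPKM in mESC 1 to 4. The states overlapped, and both held a library near 2 FPKM. The difference was 0.53 on the log2 scale (SE 0.46; 95% interval −0.51 to 1.56; limma, adjusted p = 0.40). The genes of chromosome 8 had a median deviation (log2) from the state median of −0.10, 0.09, −0.07 and 0.15 in mESC 1 to 4, where Sox1 was higher in mESC 2 and 4 than in mESC 1 and 3, and between −0.01 and 0.05 in mEpiSC. Their part in the Sox1 values was not tested. Within EpiSC7 alone the 2 libraries differed 2.55-fold, and within ESF122 they differed 2.79-fold. With Sox1 and Sox3 added together, the pair made up 5.90% to 9.51% of the summed FPKM in mEpiSC and 2.14% to 8.58% in mESC.

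Sox21, the SoxB2 member and a repressor that counters SoxB1 activity in neural progenitors, was low in both states and higher in mEpiSC. It lies at 118632455 to 118636252 of chromosome 14 in mm9. It measured 4.98, 2.22, 9.22 and 2.59 FPKM in mEpiSC 1 to 4, against 0.256, 0.378, 0.587 and 0.541 FPKM in mESC 1 to 4. The mESC values rest on 41 to 98 implied fragments. The ranges lay apart, with a 10.8-fold ratio of the means. Sox21 rose by 1.85 on the log2 scale (SE 0.34; limma, adjusted p = 0.0032), but it passed the filter only through its 4 mEpiSC libraries. In a limma fit of all 22987 genes without a filter its adjusted p was 0.020. An antisense noncoding gene of the GENCODE annotation, Gm4675, shares 17.8% of the 50-base windows of Sox21. The use of strand is not given in the sources used here, so reads from the shared stretch cannot be told apart. Genes of chromosome 14, where Sox21 lies, had a median deviation of 0.11 and 0.19 (log2) from the state median in mEpiSC 1 and 4, and of −0.10 and −0.07 in mEpiSC 2 and 3. Their part in the Sox21 values was not tested.

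Neural progenitor markers were measured beside these genes. The 8 markers summed to 15.9 to 25.0 FPKM in mEpiSC and to 6.82 to 15.7 FPKM in mESC. Most of each sum was Nes, at 13.7 to 17.6 FPKM in mEpiSC and 4.86 to 14.9 FPKM in mESC. Pax6 overlapped between the states, at 0.184 to 1.91 FPKM in mEpiSC and 0.293 to 1.64 FPKM in mESC. Hes5 and Neurog2 were below 1 FPKM in all libraries. The number of markers at 1 FPKM or more was 1, 3, 4 and 1 in mEpiSC 1 to 4. In mESC 1 to 4 it was 1, 1, 2 and 2. The part of these markers in the Sox values was not tested.

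The SoxC genes, activators in neural and mesenchymal progenitors, split into Sox4 and Sox11, which were higher in mEpiSC, and Sox12, which did not pass the test. Sox4 (chromosome 13, mm9 29042598 to 29045551) measured 37.0, 26.0, 41.1 and 25.8 FPKM in mEpiSC 1 to 4, against 8.78, 7.53, 8.83 and 9.29 FPKM in mESC 1 to 4. The lowest mEpiSC library exceeded the highest mESC library, and the mESC values were close together (8.61 ± 0.755 FPKM, SD, n = 4). Sox4 rose by 1.77 on the log2 scale (SE 0.17; limma, adjusted p = 1.8e-04), and the ratio of the means was 3.77. The Sox2 level was 1.45 to 3.27 times that of Sox4 in mEpiSC and 9.12 to 17.4 times in mESC. Of the 50-base windows of Sox4, 54.1% also occur in Gm26735, a noncoding gene on the opposite strand in GENCODE that is not listed in the tables. Without strand, reads from that shared stretch cannot be told apart.

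Sox11 (chromosome 12, mm9 28019132 to 28027583) measured 22.8, 31.6, 42.5 and 13.4 FPKM in mEpiSC 1 to 4, against 8.10, 12.2, 7.26 and 4.08 FPKM in mESC 1 to 4. The states did not overlap, although mEpiSC 4 lay close to mESC 2. Sox11 rose by 1.65 on the log2 scale (SE 0.37; limma, adjusted p = 0.0085). The change was 1.26 once the fibroblast marker level entered the model (adjusted p = 0.073). It was not called with 1 value per line either (0.088). The fibroblast term left Sox4, Sox15 and Sox21 past the test. Sox12 (chromosome 2, mm9 152219347 to 152223782) measured 14.2, 20.2, 23.1 and 10.1 FPKM in mEpiSC 1 to 4, against 17.8, 16.3, 15.4 and 13.5 FPKM in mESC 1 to 4. The mEpiSC values lay on both sides of the mESC range. The log2 fold change of Sox12 was 0.04 (SE 0.23; 95% interval −0.49 to 0.57; limma, adjusted p = 0.91), with a sign that turned under median ratio scaling (−0.10) and quantile normalization (−0.033).

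Sox13, a SoxD factor that lacks a known activation domain of its own (chromosome 1, mm9 135278876 to 135320789), measured 11.0, 13.5, 19.8 and 5.87 FPKM in mEpiSC 1 to 4, against 4.00, 6.51, 5.33 and 5.81 FPKM in mESC 1 to 4. mEpiSC 1, 2 and 3 lay above all mESC libraries, and mEpiSC 4 lay within the mESC range. Sox13 rose by 0.98 on the log2 scale (SE 0.31; limma, adjusted p = 0.032). The call was lost under both scalings (adjusted p = 0.056 and 0.062), with a random term for the line (0.10), with 1 value per line (0.22), with the fibroblast term (0.11), with voom on implied fragments (0.056) and without mESC 1, mESC 3, mESC 4, mEpiSC 1, mEpiSC 2 or mEpiSC 3 (0.054 to 0.085).

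Sox15, the single SoxG gene of mammals, whose protein can pair with Oct4 in mouse embryonic stem cells, fell in mEpiSC. It lies at 69468538 to 69470229 of chromosome 11 in mm9. It measured 0.232, 0.348, 0.197 and 2.26 FPKM in mEpiSC 1 to 4, against 15.1, 11.8, 12.5 and 9.49 FPKM in mESC 1 to 4. The implied fragments were 14, 17, 8 and 131 in mEpiSC and 378 to 752 in mESC, so the mEpiSC values are the less precise. The deposited 95% intervals, which cover counting and assignment within a library, were 0.0578 to 0.337 FPKM in mEpiSC 3 and 1.86 to 2.65 FPKM in mEpiSC 4. On the log2 scale the difference was −3.04 (SE 0.32; limma, adjusted p = 2.7e-04), and the mESC mean was 16.1 times the mEpiSC mean. Mpdu1, a neighbour whose 3′ end overlaps that of Sox15 on the opposite strand, was at 29.2 to 38.6 FPKM in mEpiSC and 49.1 to 73.4 FPKM in mESC, and without strand their shared bases cannot be told apart. Among the 8 promoters held, that of Sox15 had the lowest CpG ratio (0.239), although 34.2% of all promoters of this length were lower still. A link between that ratio and the Sox15 level was not tested.

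Sox18, a SoxF factor of blood and lymph vessels (chromosome 2, mm9 181404541 to 181406345), measured 0.622, 2.04, 3.62 and 2.67 FPKM in mEpiSC 1 to 4, against 0.198, 0.191, 0.293 and 0.394 FPKM in mESC 1 to 4. All mEpiSC values exceeded all mESC values, which rest on 11 to 17 implied fragments. In a fit of all 22987 genes without a filter, in which 11.8% of genes were called as higher and 20.1% in either direction, the log2 change was 1.26 (SE 0.32; limma, adjusted p = 0.039). Sox3 and Sox13 were not called in that fit (adjusted p = 0.057 and 0.098). Of the 7 endothelial markers, Cdh5, the vascular cadherin, was at 0.111, 1.28, 3.21 and 1.36 FPKM and Kdr, a VEGF receptor, at 0.153, 1.86, 5.16 and 1.73 FPKM in mEpiSC 1 to 4. Both were at 0.0739 FPKM or less in mESC, and both were lowest in mEpiSC 1 and highest in mEpiSC 3, as Sox18 was; neither passed the test without a filter (adjusted p = 0.091 and 0.096). The other markers of the list were mixed between the states. Pecam1, an adhesion molecule of endothelium, was lower in mEpiSC, at 0.0629 to 2.56 FPKM against 11.3 to 23.1 FPKM in mESC (log2 −3.15; limma, adjusted p = 3.4e-04). Flt1, another VEGF receptor, was higher, at 45.8, 12.5, 13.3 and 3.75 FPKM in mEpiSC 1 to 4 against 0.116 to 1.79 FPKM in mESC (log2 3.21; limma, adjusted p = 0.0039), and was highest in mEpiSC 1, where Sox18 was lowest. Tek, an angiopoietin receptor, was at 0.174 to 0.967 FPKM in mEpiSC and 0.670 to 2.02 FPKM in mESC. Within mEpiSC, Pecam1, Tek and Tie1 (0 to 1.61 FPKM) were also lowest in mEpiSC 1 and highest in mEpiSC 3. Flt1 and Emcn were highest elsewhere, in mEpiSC 1 and mEpiSC 4. Summed over the 7 markers the level was 10.4 to 46.3 FPKM in mEpiSC and 13.9 to 24.7 FPKM in mESC, with Emcn at 0 in mEpiSC 1, mESC 1 and mESC 3. The part of such cells in the Sox18 level was not tested.

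**Figure D3:**
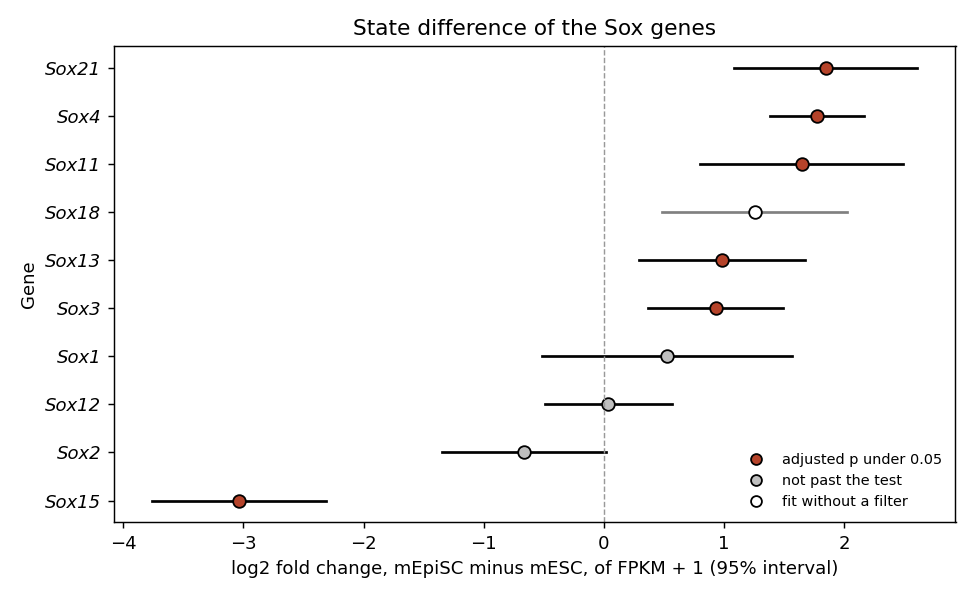
Log2 fold change, mEpiSC minus mESC, of FPKM + 1 (horizontal axis) with its 95% interval for each Sox gene (vertical axis); filled red points passed the limma test over all genes, grey points did not, and the open point is Sox18 from the fit without a filter. Sox21, Sox4, Sox11, Sox13 and Sox3 lie to the right of 0 and Sox15 at −3.04.

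The mEpiSC libraries differed among themselves in a shared way. In mEpiSC 3 the level was the highest of the 4 mEpiSC libraries for 9 of the 10 members, all but Sox15, whereas mEpiSC 3 was highest for 19.9% of all tested genes. In mEpiSC 4 it was the lowest for 6 members (Sox2, Sox3, Sox4, Sox11, Sox12 and Sox13), against 31.2% of all tested genes. mEpiSC 2 and 3 are the same line, EpiSC7, and mEpiSC 3 was above mEpiSC 2 for those 9 members by ratios from 1.15 in Sox12 to 4.15 in Sox21, while the median ratio over all tested genes was 1.00. In mESC the highest values were spread, with 2 members highest in mESC 1, 4 in mESC 2, 2 in mESC 3 and 2 in mESC 4.

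**Figure D4:**
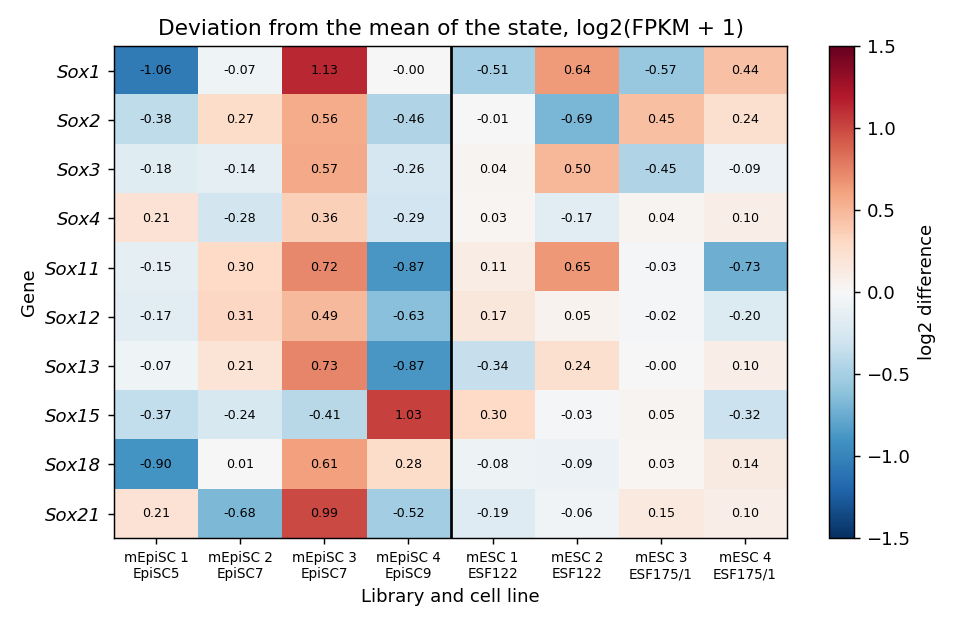
Deviation of each library from the mean of its state, in log2(FPKM + 1), for each Sox gene (rows) and library with its cell line (columns, mEpiSC left of the line). Values above the state's mean are red and values below it blue; the mEpiSC 3 column lies above the mean for every gene but Sox15, which is far above it in mEpiSC 4.

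Differences between lines within a state were tested with 1 mean per line. Among the mEpiSC lines 0 of the 9 tested members were called by limma's F test, where 2.60% of all genes were called, and 5 (Sox2, Sox11, Sox12, Sox13 and Sox15) had an unadjusted p under 0.05. The lowest adjusted p was 0.062 for Sox15, which averaged 0.232 FPKM in EpiSC5, 0.273 in EpiSC7 and 2.26 in EpiSC9. Sox12 followed (0.066), at 14.2 FPKM in EpiSC5, 21.7 in EpiSC7 and 10.1 in EpiSC9. EpiSC5 and EpiSC9 have 1 library each, which is assumed to vary like the lines with 2. Between the mESC lines, ESF175/1 minus ESF122, 0 of 9 members were called against 0.762% of all genes, and 2 had an unadjusted p under 0.05. Sox2 averaged 143 FPKM in ESF175/1 and 90.1 FPKM in ESF122 (log2 difference 0.70, SE 0.25; limma, adjusted p = 0.28), and Sox11 averaged 5.67 FPKM in ESF175/1 and 10.1 FPKM in ESF122 (−0.76, SE 0.29; adjusted p = 0.30).

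The remaining Sox genes were mostly low. Of the 10 other family members 7 were below 1 FPKM in all libraries, and Sox17 was the single one that passed the filter. Sox17, a SoxF factor of endoderm, measured 18.4, 2.65, 7.42 and 2.43 FPKM in mEpiSC 1 to 4, against 0.0538, 0.422, 0.0635 and 0.103 FPKM in mESC 1 to 4. Its log2 fold change was 2.55 (SE 0.50; limma, adjusted p = 0.0045), but it passed the filter only through its 4 mEpiSC libraries, and the call was lost with 1 value per line (adjusted p = 0.069). It was highest in EpiSC5. The primitive endoderm markers, a list that holds Sox17 itself, were also highest there, at a sum of 78.5 FPKM, and their part in the value was not tested. Of its 50-base windows 15.0% also occur in the antisense gene Gm37587. Sox9, a SoxE factor of cartilage and of many progenitor cells, measured 2.02, 1.73, 2.62 and 0.882 FPKM in mEpiSC 1 to 4, against 0.198, 0.419, 0.165 and 0.0428 FPKM in mESC 1 to 4. In the fit without a filter 3 of the 10 were called, all higher: Sox17, Sox9 (log2 1.19, SE 0.21; adjusted p = 0.013) and Sox6 (log2 0.22, SE 0.06; adjusted p = 0.049). Over all genes of that fit 11.8% were called as higher and 20.1% in either direction. Sox6 was low throughout, at 0.0868 to 0.336 FPKM in mEpiSC and 0.0492 to 0.0591 FPKM in mESC. The 10 main members carried 87.3% to 96.9% of all Sox FPKM in mEpiSC and 99.0% to 99.7% in mESC.

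Genes with known joint OCT and SOX elements, together with POU partners, went in both directions. Of 9 tested genes 4 were lower (Fgf4, Utf1, Fbxo15 and Zscan10) and 1 was higher (Lefty1) in mEpiSC, with a median log2 fold change of −0.21. Over all tested genes 14.2% were lower and 23.1% higher. The call of Utf1, a chromatin factor of pluripotent cells, was lost without a filter (adjusted p = 0.053), with the fibroblast term (0.087) and with 1 value per line (0.12), and that of Zscan10 with 1 value per line (0.069). Fbxo15, an F-box protein and a classic Oct4 and Sox2 target, measured 0.693, 2.14, 2.77 and 5.73 FPKM in mEpiSC 1 to 4, against 70.2, 60.5, 123 and 125 FPKM in mESC 1 to 4 (log2 −4.74, SE 0.41; limma, adjusted p = 9.5e-05). The 2 core factors beside Sox2 did not pass the test. Pou5f1 measured 314, 608, 420.0 and 456 FPKM in mEpiSC 1 to 4, against 504, 510.0, 446 and 570.0 FPKM in mESC 1 to 4 (log2 −0.21, SE 0.20; limma, adjusted p = 0.44), and Nanog 86.2, 162, 113 and 49.4 FPKM in mEpiSC 1 to 4, against 76.4, 117, 107 and 128 FPKM in mESC 1 to 4 (log2 −0.16, SE 0.33; adjusted p = 0.74). Their ranges overlapped between the states. Zscan10, a zinc finger factor of embryonic stem cells, fell as well (log2 −1.03, SE 0.22; adjusted p = 0.0064). Lefty1, an inhibitor of Nodal, measured 729, 512, 196 and 106 FPKM in mEpiSC 1 to 4, against 59.8, 95.7, 66.0 and 152 FPKM in mESC 1 to 4. The ranges overlapped (log2 1.76, SE 0.58; limma, adjusted p = 0.041), and the call was lost in many alternatives. These were the replicate number as a block (adjusted p = 0.061), median ratio scaling (0.059), no filter (0.13), a random term for the line (0.12), the fibroblast term (0.18), 1 value per line (0.19) and leaving out mESC 1, 2 or 3 or mEpiSC 1, 2 or 3 (0.053 to 0.10). Of its 50-base windows 17.9% are shared with Lefty2. Pou3f2, a neural POU factor and a partner of Sox2 in neural progenitors, did not pass the filter at 0.459, 1.02, 2.59 and 0.558 FPKM in mEpiSC and at 0.0236 to 0.0540 FPKM in mESC.

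For each member past the test, the 2 genes of most similar pattern were sought among 7586 genes, by the root mean square difference of centred log2(FPKM + 1) over the 8 libraries. The libraries share their line and depth across genes, so this describes likeness only. Sox11 came closest to Ttyh3, a membrane protein of the tweety family, at 0.15, followed by Zfp362 at 0.21. Sox4 was nearest to Zeb1, a factor of epithelial-mesenchymal transition, at 0.17 and to Kirrel at 0.21. Sox3 was nearest to Iqgap2 (0.18) and Cnpy4 (0.19), and Sox13 to Pcnx (0.19) and the Polycomb gene Ring1 (0.20). Sox21 was nearest to Trp53i11 at 0.34 and Kirrel at 0.38. Sox15 was nearest to Manba, the lysosomal beta-mannosidase, at 0.28 and to Ap1m2, an epithelial clathrin adaptor, at 0.35. Manba averaged 2.60 FPKM in mEpiSC and 30.2 FPKM in mESC. Like Sox15 it was highest among the mEpiSC libraries in mEpiSC 4, at 3.66 FPKM, as were 42.8% of all tested genes. Its highest mEpiSC value was 1.69 times its lowest, against 11.4 times for Sox15.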

How the data were processed

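Polyadenylated RNA was prepared with the TruSeq kit, per the labels' protocols. The authors deposited 1 table of FPKM per library, with interval bounds and a status column. Per the submitters' processing notes they came from TopHat2 2.0.6, Cufflinks 2.0.2 and mm9. Annotation, options and strand use: not given in the sources used here. Of 23699 entries, 712 with symbols at several loci were left out. Low genes came out as whole fragments for 80.2% to 81.1% (tolerance 0.05, under 100 implied fragments), and implied fragments give the depth; intervals cover counting error within a library.

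Samples were grouped by title. limma 3.58.1 (trend, robust; statmod 1.5.0, R 4.3.3) was fitted to log2(FPKM + 1) of 11556 genes that reached 1 FPKM in 4 or more libraries, with Benjamini-Hochberg adjustment over all of them, and checked on simulated data. Line tests used 1 mean per cell line. Deviations of same-numbered libraries correlated between the states, at 0.22, 0.15, 0.18 and 0.51 in replicates 1 to 4. Each exceeded 0.1, so pairs were assumed, from the data and no label, and a fit with the number as a block was made. The highest correlation with another number was 0.12, 0.19, 0.21 and −0.24. In replicates 2 and 3 this exceeded the same-numbered value, so the pairing is uncertain. Alternatives were other pseudocounts, filters and scalings, blocks, line means and leaving out each library. Genes named were all Sox genes, the list of OCT-SOX genes and POU partners, marker lists and 2 genes of similar pattern per called member. Naive, primed, neural, endothelial, primitive endoderm, fibroblast and trophoblast markers were fixed as lists and are mostly given as sums and counts. Members and lists were chosen with earlier results of these data known. Shared windows and strands of neighbours came from GENCODE vM21, promoters from RefSeq (GRCm38.p6); no coordinate was converted.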

Additional observations from a re-analysis of the deposited data

Results flagged for a closer look

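Among the 20 sets of 4 libraries (10 genes in 2 states), a library stood apart from the other 3 in 2 sets, where chance alone marks about 1 in 20. Sox3 in mEpiSC 3 was at 12.5 FPKM, against 6.61 to 7.25 FPKM in the other mEpiSC libraries, and without mEpiSC 3 the log2 fold change was 0.74 (limma, adjusted p = 0.041). Sox15 in mEpiSC 4 was at 2.26 FPKM, against 0.197 to 0.348 FPKM in the other mEpiSC libraries, and it rested on 131 implied fragments.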

How the results depend on the processing

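With the settings of the report 5 members were higher and 1 lower. Sox4 and Sox15 kept their calls in each of the 23 alternatives. Sox21 kept its call wherever it was tested, but a filter on a mean of at least 5 FPKM left it out. It passed the main filter only through its 4 mEpiSC libraries, and most alternatives keep that filter, so its kept calls are not separate support. The number higher was 3 with the line as a random block, 3 with limma's voom on implied fragments, 2 with a fibroblast marker covariate and 2 with 1 value per cell line, where 15.5%, 19.7%, 19.6% and 7.49% of all genes were higher, against 23.1% in the report. The last 3 settings and the fit on replicates 1 to 3 were chosen after seeing the data. In a fit of all libraries with 1 mean per cell line 2 were lower, Sox15 and Sox2; with 1 value per line, at the same fold, Sox2 was not called (adjusted p = 0.18). Leaving out 1 library gave 3 to 5 higher (3 without mESC 3) and 1 to 2 lower (2 without mESC 2). The replicate block gave 5 higher and 1 lower, and of the members tested, Sox17 and the OCT-SOX list it ended the call of Lefty1 (adjusted p = 0.061) alone. Between the mEpiSC lines 1 member, Sox15, was called with a pseudocount of 0.1.

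Of the same genes, 4 changed sign, none past the test. Marker genes and genes of similar pattern were not run under the alternatives. Sox12 was at −0.10 (log2) with median ratio scaling, −0.033 with quantile normalization, −0.038 with the random block, −0.10 with 1 mean or 1 value per line, −0.0096 with voom and −0.18 with the covariate. The covariate also gave 0.015 for Pou3f1 and −0.27 for Pou2f1, and replicates 1 to 3 gave 0.24 for Nanog. With 1 library left out the range was −0.13 to 0.25 for Sox12, −0.30 to 0.053 for Pou3f1, −0.056 to 0.39 for Pou2f1 and −0.42 to 0.15 for Nanog. The cause was not tested. The mean share of Sox2 with 1 library left out ran from 38.1% to 41.1% in mEpiSC and from 62.6% to 70.2% in mESC. In single libraries the share was 35.0% to 44.0% in mEpiSC and 50.8% to 73.7% in mESC. Depth limits the mEpiSC values of Sox15 and the mESC values of Sox18 and Sox21.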

Other observations

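Several Sox genes too low for the main test did not overlap between the states. The same held for 37.1% of all tested genes, and the share among genes below the filter was not taken. Sox5, a SoxD factor of cartilage and neurons, was listed at 1.05 FPKM in mEpiSC 1 and between 0.154 and 0.352 FPKM in mEpiSC 2 to 4, against 0.0281 to 0.0523 FPKM in mESC. Sox10, the neural crest factor of the SoxE group, was at 0.178 to 0.576 FPKM in mEpiSC and 0.0329 to 0.0901 FPKM in mESC, and Sox7, a SoxF factor of endoderm and vessels, at 0.327 to 0.919 FPKM in mEpiSC and 0.111 to 0.206 FPKM in mESC. None of these 3 passed the limma test without a filter (adjusted p = 0.16, 0.064 and 0.078). Their mESC values rest on 6 to 15, 4 to 16 and 20 to 26 implied fragments. Sox8 and Sox30 overlapped between the states, Sox14 did not exceed 0.0903 FPKM in any library, and Sry was listed at 0 throughout.

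The 7 trophoblast markers summed to 10.6 to 43.2 FPKM in mEpiSC and 17.4 to 20.6 FPKM in mESC, with Cdx2, Elf5 and Hand1 below 1 FPKM in every library. The 7 primitive endoderm markers, which include Sox17 and Sox7, summed to 12.9 to 78.5 FPKM in mEpiSC and 3.05 to 5.52 FPKM in mESC.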
